A study of Mus musculus with 50 samples.

Results

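The TREM receptors (triggering receptors expressed on myeloid cells) and the small adapter proteins that carry their signal were followed in microglia, the resident macrophages of the brain, sorted from the hippocampus of 50 mice. The genes were chosen by symbol: the receptors Trem1, Trem2, Trem3, Treml2 and Treml4, the adapter Tyrobp (which encodes DAP12) and the adapter Hcst (which encodes DAP10). They are 7 of the 53700 genes counted, and 6 of them passed the filter on low counts, a level of at least 1 CPM (counts-per-million, scaled by library size) in at least 3 mice. Trem3 did not pass and is given as counts only.

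The mice were reared under control conditions (CTR) or under early-life stress (ELS), a model in which dam and pups are given limited bedding and nesting material from P2 to P9 (postnatal days). Microglia were taken at P9 from 12 P9-CTR and 13 P9-ELS mice, which received no injection. At P200 they were taken 3 h after an intraperitoneal injection of PBS or of LPS (1 mg/kg, from E. coli O111:B4), a component of the bacterial outer membrane that activates innate immune cells. After PBS there were 7 CTR mice (P200-CTR-PBS) and 6 ELS mice (P200-ELS-PBS), and after LPS 7 CTR mice (P200-CTR-LPS) and 5 ELS mice (P200-ELS-LPS). All were C57BL/6J males, each library holds the CD45int CD11b+ cells of 1 mouse, and mice are numbered within their group. This gate does not by itself separate microglia from every other myeloid cell with little CD45. Myelin was removed with Percoll at P200 but not at P9, so the preparation and the age cannot be told apart in comparisons between ages. The series had 13 samples labelled P9-ELS.

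TREM receptors have a single immunoglobulin-like domain and a short tail that does not signal. Most of them pair in the membrane with DAP12, whose ITAM motif is phosphorylated by Src family kinases and then recruits the kinase Syk. DAP10 lacks an ITAM and recruits PI3 kinase instead. TREM1 is known as an amplifier of inflammatory signals in neutrophils and monocytes. TREM2 is a receptor for lipids and lipoproteins on microglia, and loss of TREM2 or of DAP12 causes Nasu-Hakola disease in humans. TREML2 does not depend on DAP12, TREML4 has been linked to the handling of dying cells and to Toll-like receptor 7, and mouse Trem3 encodes a further DAP12 partner.

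The receptor genes lie side by side on chromosome 17, all on the plus strand, within 237994 bases that run from Trem5 to Treml1. In GRCm39 coordinates Trem1 spans chr17:48539784-48553952, Trem3 chr17:48554788-48565876, Treml4 chr17:48571323-48582388, Treml2 chr17:48606526-48619561 and Trem2 chr17:48653429-48661175. The adapter genes lie tail to tail on chromosome 7. Tyrobp is at chr7:30113170-30117010 on the plus strand and Hcst at chr7:30117135-30119297 on the minus strand, with 124 bases between them. A non-coding gene on the opposite strand shares 823 exonic bases with Trem1, which is 27.4% of its exonic length, and another shares 433 with Trem2, which is 8.75%. Neither has a row in the counts. The strand setting of the counting is not given in the sources used here, so reads from both strands of these stretches cannot be told apart.

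The 250 bases before the start of transcription are printed for the receptors of the cluster that responded to LPS or to age and have an entry in the RefSeq promoter table (build GRCm38.p6). Each was found once, without a mismatch, in GRCm39, at chr17:48539517-48539766 for Trem1, chr17:48653179-48653428 for Trem2 and chr17:48571073-48571322 for Treml4, all on the plus strand. The table also holds Hcst, but not Tyrobp, Treml2 and Trem3. Capitals mark GAGGAA on either strand, the core bound by PU.1 and other ETS factors, PU.1 being the master regulator of myeloid genes.
Trem1: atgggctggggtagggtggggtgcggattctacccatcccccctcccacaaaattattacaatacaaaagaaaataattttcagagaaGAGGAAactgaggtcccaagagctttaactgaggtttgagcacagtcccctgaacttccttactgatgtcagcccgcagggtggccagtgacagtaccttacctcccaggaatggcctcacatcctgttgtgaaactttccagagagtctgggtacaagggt
Trem2: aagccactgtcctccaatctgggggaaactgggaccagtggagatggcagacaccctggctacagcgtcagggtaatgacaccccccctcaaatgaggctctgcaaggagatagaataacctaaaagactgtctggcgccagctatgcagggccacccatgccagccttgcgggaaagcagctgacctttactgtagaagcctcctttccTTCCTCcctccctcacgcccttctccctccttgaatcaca
Treml4: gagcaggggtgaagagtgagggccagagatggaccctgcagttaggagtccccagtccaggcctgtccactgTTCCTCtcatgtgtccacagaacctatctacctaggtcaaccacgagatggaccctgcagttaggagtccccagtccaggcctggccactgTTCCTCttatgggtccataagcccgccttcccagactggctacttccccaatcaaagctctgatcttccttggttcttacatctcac

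Trem1 held 1 such core, 162 to 157 bases before the start. Trem2 held 1 on the minus strand, 40 to 35 bases before the start, and Treml4 held 2 on the minus strand, 178 to 173 and 87 to 82 bases before it. No GAGGAA was found in the Hcst window. The same 6 letters occurred in 23.3% of 32851 mouse promoter windows of this length. The AP-1 site TGACTCA (4.46% of all windows), the cyclic AMP response element TGACGTCA (1.55%), the NF-kB consensus (7.25%) and the TATA box TATAAA (12.4%) were found in none of the 4 windows on either strand. These are matches of letters and not measured binding.

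Libraries held between 5152838 and 42231258 counts. In 3 libraries, those of P9-ELS mice 5 and 6 and of CTR-PBS mouse 1, fewer than 16000 genes had a count, against 16485 to 21100 in the others. The microglial markers were high in every library, where a list of 8 genes, P2ry12, Tmem119, Cx3cr1 and Sall1 among them, summed to between 34573 and 84221 CPM. The LPS response was present, since Tnf, Il1b, Nfkbia, Tnfaip3 and Ccl3 were higher after LPS in both rearing groups (5 of 5 in each). Group means are given with their SD over mice. Differences are log2 fold changes with their standard error (SE) from edgeR's quasi-likelihood test, and a gene was called when its p, adjusted over all 16696 genes tested, was under 0.05. In bulk RNA, fewer cells of a type and less RNA per cell cannot be told apart.

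Tyrobp and Trem2 were the abundant members in all groups. With CPM divided by the exonic length in kilobases (RPKM), P9-CTR microglia held 1714 of Tyrobp, 296 of Trem2, 10.9 of Hcst, 2.9 of Treml2, 1.26 of Treml4 and 0.268 of Trem3, while Trem1 was at 0. In CTR-PBS microglia the order was Tyrobp (1586 RPKM), Trem2 (466), Hcst (13.3), Treml2 (1.84), Treml4 (0.0641), Trem1 (0.00739) and Trem3 (0). Within each of the 6 groups the mice's Tyrobp RPKM values did not overlap their Trem2 values, and neither overlapped the members below. Hcst and Treml2 followed, but in P9-ELS their ranges overlapped. The order of Tyrobp and Trem2 depends on the length used, here all annotated exons of a gene joined, 682 bases for Tyrobp and 4946 for Trem2. In CPM, Trem2 was above Tyrobp in every mouse, with means of 1463 against 1169 in P9-CTR and 2305 against 1082 in CTR-PBS mice. After LPS Trem1 entered this middle range, with 7.04 RPKM in CTR-LPS and 8.27 in ELS-LPS, beside 4.25 and 4.52 for Treml2. The Trem1 and Treml2 values of CTR-LPS mice overlapped, as did the Hcst and Trem1 values of ELS-LPS mice. Treml4 and Trem3 were the lowest members after LPS, with mean levels of 0.161 and 0.322 RPKM in CTR-LPS mice.

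**Figure D1:**
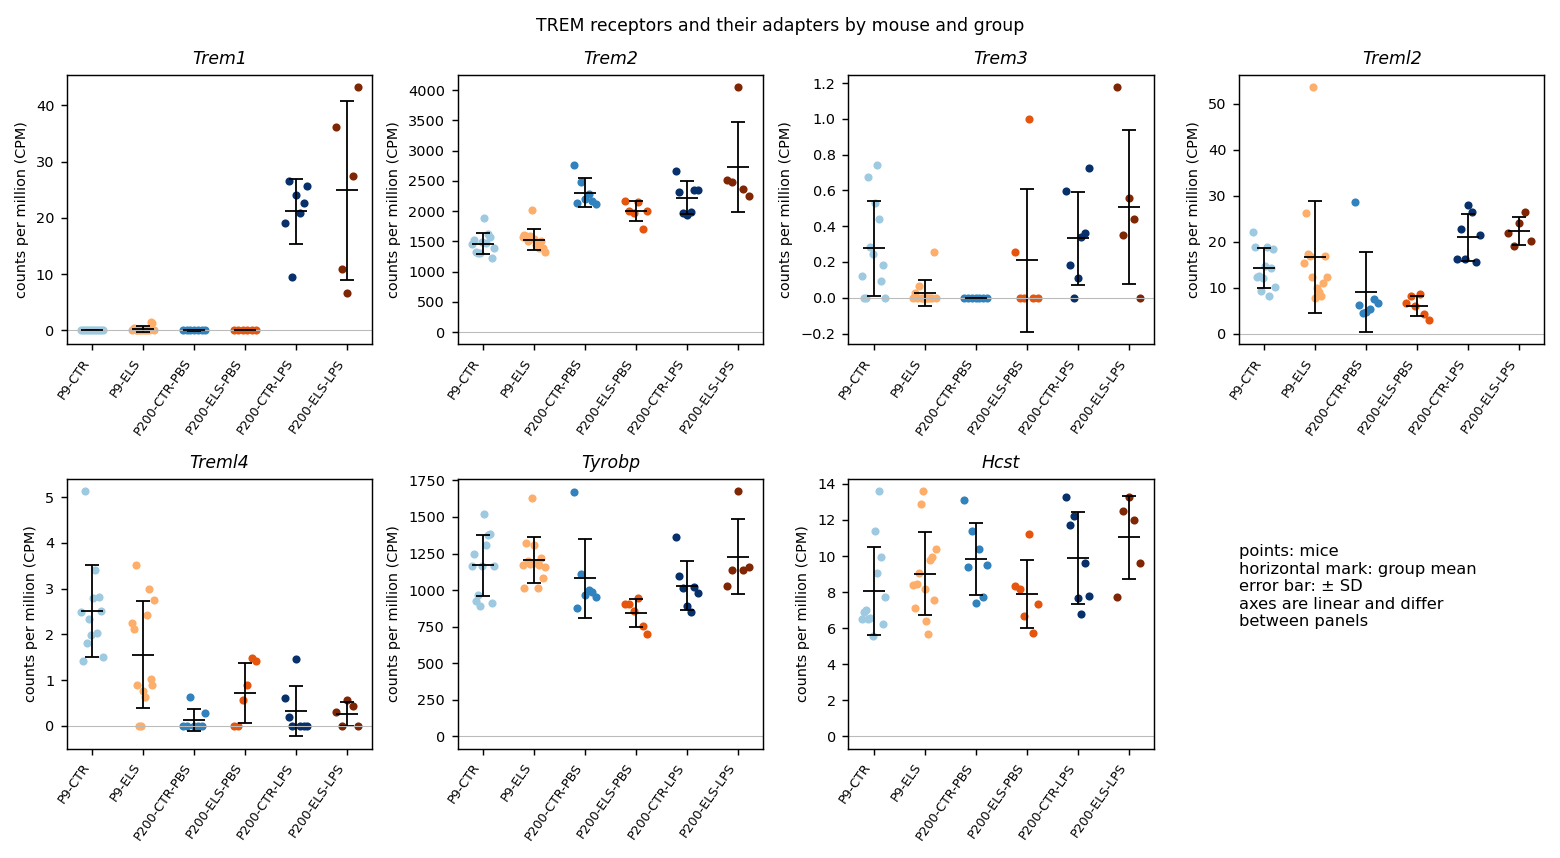
Level of each of the 7 members in every mouse, in CPM (linear axes that differ between panels), by group; points are mice, the mark is the group mean and the bar is ± SD. Trem1 lies between 6.61 and 43.3 CPM in the LPS mice and at or below 0.156 CPM in the PBS mice, Trem2 is higher at P200 than at P9, and Treml4 is highest at P9.

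The first question was how adult microglia change these receptors after LPS. In CTR mice 2 of the 6 members tested were called, Trem1 and Treml2, both higher, where 14.9% of all genes tested were called. In ELS mice 4 were called, Trem1, Treml2, Trem2 and Tyrobp, all higher, where 12.3% of all genes were called. The log2 fold changes of the 6 members had a median of 0.59 in CTR mice, beside 0.005 over all genes, and 0.51 in ELS mice, beside -0.035. Hcst and Treml4 were called in neither.

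Trem1, the inflammatory amplifier, went from nearly no reads to a clear level. After PBS, 4 counts were found in CTR mouse 3 and 1 count in each of the ELS mice 4 and 5, and the other 10 mice had none. After LPS the CTR mice held 19.11, 26.5, 9.58, 24.0, 20.8, 22.6 and 25.7 CPM, and the ELS mice 36.2, 10.9, 6.61, 27.4 and 43.3 CPM. Every LPS mouse lay above every PBS mouse. The mean was 21.2 ± 5.73 CPM in CTR-LPS against 0.0222 ± 0.0588 CPM in CTR-PBS mice, and 24.9 ± 15.8 CPM in ELS-LPS against 0.0147 ± 0.0229 CPM in ELS-PBS mice. The spread between mice was wider in ELS-LPS (coefficient of variation 63.7%) than in CTR-LPS (27.1%), a difference that was not tested.

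The fitted log2 fold change of Trem1 was 9.38 (SE 1.18, adjusted p = 7.45e-08) in CTR mice and 10.31 (SE 1.35, adjusted p = 2.01e-07) in ELS mice. These fits rest on 4 and 2 counts in the PBS groups and depend on the prior count. The ratio of the pooled CPM was 831 in CTR (95% exact interval 324 to 3054) and 1756 in ELS (486 to 14513). The intervals cover counting error only, and they overlap. The interaction of LPS and ELS for Trem1 was 0.93 on the log2 scale (95% interval -2.93 to 4.79), and CTR-LPS and ELS-LPS differed by 0.23 (interval -1.39 to 1.85).

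Of the 8 microglial markers 3 were called lower after LPS in both rearing groups. Sall1, a transcription factor of microglial identity, fell by 1.73 on the log2 scale in CTR and by 2.01 in ELS mice, and the receptor genes P2ry12 and Gpr34 fell by 0.62 and 0.75 in CTR mice and by 0.58 and 0.76 in ELS mice.

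Because Trem1 is abundant in neutrophils and monocytes, the markers of these cells were summed in the same libraries. Of 13 neutrophil markers 11 did not pass the filter on low counts. Their sum was 0 to 2.61 CPM in CTR-LPS mice, beside at most 1.09 CPM after PBS, and 0.737 to 10.5 CPM in ELS-LPS mice, beside at most 2.44 CPM after PBS. Ly6g and Retnlg had no count in any of the 50 mice, and S100a8 reached at most 1.08 CPM in a CTR-LPS and 2.58 CPM in an ELS-LPS mouse. In ELS-LPS mice Ngp reached 4.33 CPM, Mmp8 2.45, Camp 1.15, S100a9 1.11 and Ltf 0.823 CPM, each with a median of 0. In ELS-PBS mice Camp reached 0.239 CPM, and Ngp, Mmp8, S100a9 and Ltf had no count. Elane and Mpo had no count in ELS-LPS mice. Il1r2 stood at 0.175 to 1.08 CPM in ELS-LPS and at 0 to 1.15 CPM in ELS-PBS mice. Cxcr2 and Mmp9, the 2 markers tested, were not called after LPS in either rearing group. They passed the filter through the P9 mice and had a median of 0 in every P200 group. Their tests therefore cannot show whether neutrophil markers changed after LPS.

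The 8 monocyte markers summed to 3.43 to 9.89 CPM in CTR-LPS, within the 0.712 to 11.5 CPM of CTR-PBS. In ELS-LPS they summed to 4.5 to 27.5 CPM, against 4.96 to 14.5 CPM in ELS-PBS. Of these, Hp, which encodes haptoglobin (log2 fold change 9.56, SE 2.14, adjusted p = 0.00179), and Vcan, which encodes versican (5.25, SE 1.35, adjusted p = 0.00498), were called in ELS mice. Both are low, with medians of 1.04 and 0.369 CPM after LPS. In CTR mice none of the 5 tested was called. Ly6c2 was at 0 in all CTR-LPS mice and at most 0.147 CPM in ELS-LPS mice, beside at most 0.465 CPM in ELS-PBS mice. ELS-LPS mice 5 and 1, with 43.3 and 36.2 CPM of Trem1, also had 25.1 and 27.5 CPM of the monocyte markers. Of these sums Hp gave 4.76 CPM in mouse 5 and 15.3 CPM in mouse 1. Mouse 4, with 27.4 CPM of Trem1, had 12.2 CPM of the monocyte markers and 10.5 CPM of the neutrophil markers. Mice 2 and 3, with 10.9 and 6.61 CPM of Trem1, had 4.5 and 5.99 CPM of the monocyte markers. The part of these cells in the Trem1 level of ELS mice was not tested. Summed over Tnf, Il1b, Nfkbia, Tnfaip3 and Ccl3, ELS-LPS mice 5, 1, 4, 2 and 3 held 6908, 3626, 4280, 1869 and 3087 CPM. The CTR-LPS mice held 9.58 to 26.5 CPM of Trem1 with at most 9.89 CPM of the summed monocyte markers. Of 5 dendritic cell markers 3 were tested, and only Zbtb46 was called, in both rearing groups (log2 fold change 1.43 in CTR and 2.12 in ELS mice). The 3 had a median of 1.07 in CTR mice and of -0.35 in ELS mice, where only Zbtb46 was above 0. The sum of the 5 was 4.86 to 24.0 CPM in CTR-LPS and 6.55 to 44.5 CPM in ELS-LPS mice, against 3.28 to 6.79 and 1.95 to 9.55 CPM after PBS. Of 6 border macrophage markers Cbr2 was called higher after LPS in CTR mice (3.37, SE 0.90, adjusted p = 0.00624), at 0 to 0.582 CPM after LPS and 0 to 0.214 CPM after PBS, and none of the 6 was called in ELS mice. The part of either cell type was likewise not tested.

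**Figure D2:**
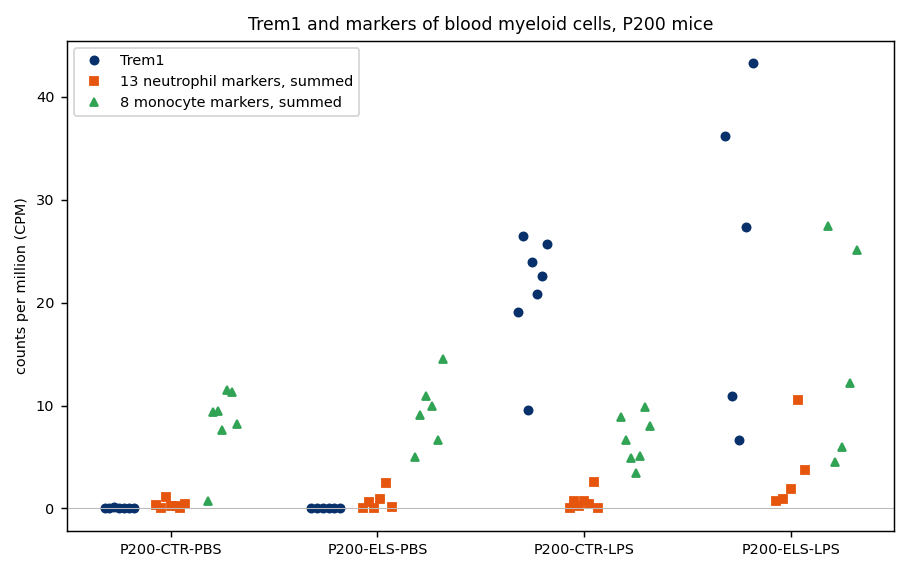
Trem1 (circles), the sum of 13 neutrophil markers (squares) and the sum of 8 monocyte markers (triangles) in each P200 mouse, in CPM (linear axis). Trem1 separates LPS from PBS mice without overlap. The neutrophil sum stays at or below 2.61 CPM in CTR-LPS mice and reaches 10.5 CPM in an ELS-LPS mouse. In 2 ELS-LPS mice both Trem1 and the monocyte sum are high.

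Treml2, a receptor outside the DAP12 pathway, was also higher after LPS. It stood at 16.3, 22.7, 16.2, 27.9, 26.5, 15.5 and 21.5 CPM in the CTR-LPS mice, and at 28.7, 6.27, 4.4, 4.61, 5.27, 7.5 and 6.72 CPM in the CTR-PBS mice. CTR-PBS mouse 1, whose library has few detected genes, lay above all LPS mice, and the other 6 lay below all of them. The log2 fold change was 1.21 (SE 0.35, adjusted p = 0.0135), and 1.85 without this mouse (adjusted p = 1.87e-05). The ELS-LPS mice held 21.9, 19.06, 24.0, 26.5 and 20.07 CPM, and the ELS-PBS mice 6.57, 8.07, 6.04, 8.6, 4.31 and 2.88 CPM. These groups did not overlap, with a log2 fold change of 1.87 (SE 0.40, adjusted p = 0.000613). After LPS the means were 21.0 ± 5.12 CPM in CTR and 22.3 ± 3.0 CPM in ELS mice, and their log2 difference of 0.09 had a 95% interval of -0.67 to 0.85.

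Trem2, the lipid receptor, was not called in CTR mice. It stood at 2666, 2307, 1960, 1929, 1979, 2346 and 2352 CPM in CTR-LPS and at 2764, 2130, 2484, 2194, 2278, 2162 and 2119 CPM in CTR-PBS mice, ranges that overlap almost wholly. The log2 difference was -0.05 with a 95% interval of -0.26 to 0.16. In ELS mice Trem2 was called. It stood at 2511, 2481, 4055, 2370 and 2246 CPM after LPS and at 2163, 2003, 1966, 2158, 1704 and 2003 CPM after PBS, without overlap. The log2 fold change was 0.45 (SE 0.12, adjusted p = 0.00617). Mouse 3, at 4055 CPM, stood apart from the other LPS mice, and without it the log2 fold change was 0.26 and the call was lost (adjusted p = 0.107).

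Tyrobp, the adapter DAP12, went with Trem2. In CTR mice it stood at 1366, 1093, 1016, 890, 850, 1020 and 978 CPM after LPS and at 1674, 876, 1113, 966, 1003, 989 and 954 CPM after PBS, and the log2 difference was -0.07 (95% interval -0.33 to 0.19). In ELS mice it stood at 1031, 1136, 1677, 1139 and 1157 CPM after LPS and at 902, 907, 855, 949, 751 and 700 CPM after PBS. All 5 ELS-LPS mice lay above all 6 ELS-PBS mice, and the log2 fold change was 0.54 (SE 0.15, adjusted p = 0.00845). Mouse 3 was again the highest of the ELS-LPS group. Without it the log2 fold change was 0.40 and the call was lost (adjusted p = 0.069). Without it and CTR-PBS mouse 1, also the highest of its group, Tyrobp was called (0.40, adjusted p = 0.0333) and Trem2 was not (0.26, adjusted p = 0.0886).

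Hcst, the adapter DAP10, stood at 6.81 to 13.3 CPM in CTR-LPS and 7.37 to 13.1 CPM in CTR-PBS mice, with a log2 difference of 0.00 (95% interval -0.43 to 0.43). In ELS mice it stood at 7.74, 12.5, 13.3, 12.0 and 9.6 CPM after LPS and at 8.31, 8.18, 6.66, 11.25, 5.74 and 7.33 CPM after PBS, and the difference of 0.48 was not called (SE 0.24, adjusted p = 0.215). Treml4 was at 0 in 5 of the 7 CTR-PBS mice and 4 of the 7 CTR-LPS mice, and its differences were 1.18 (adjusted p = 0.528) in CTR and -1.45 (adjusted p = 0.487) in ELS mice. Trem3 had no count in any CTR-PBS mouse and 43 counts over the CTR-LPS mice, at least 15.18-fold more CPM, with 3 counts over the group as the floor. When genes with few counts were also tested, Trem3 was called in CTR mice (log2 fold change 5.86, adjusted p = 0.00675) but not in ELS mice (1.26, adjusted p = 0.742), where the PBS mice held 34 counts, most of them in mouse 4.

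**Figure D3:**
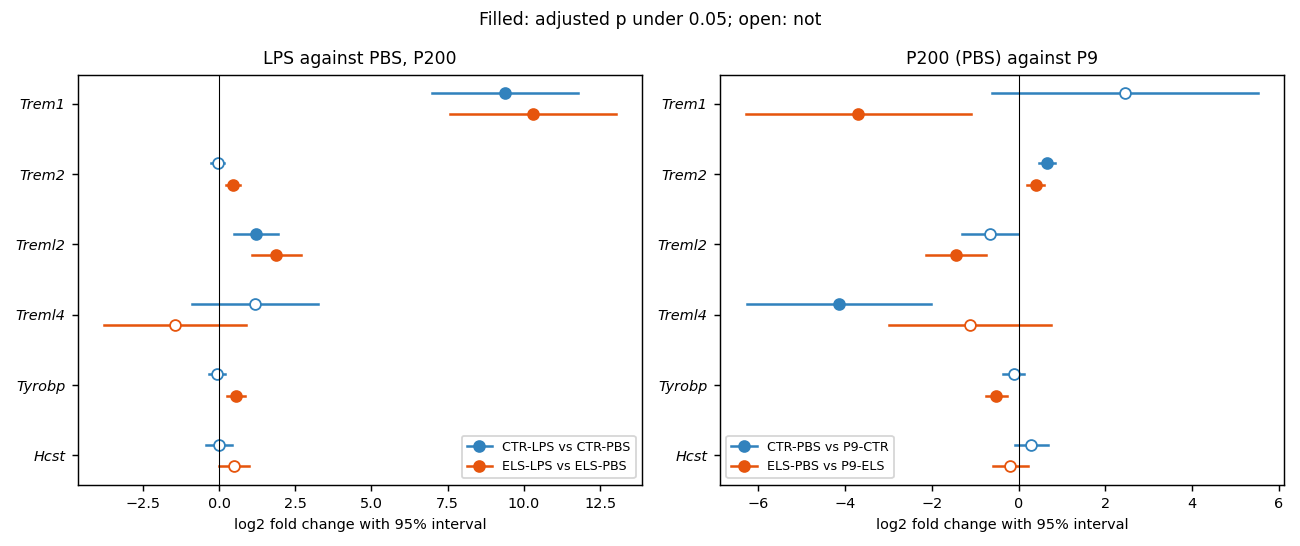
Log2 fold change of the 6 members tested, with 95% intervals, for LPS against PBS at P200 (left) and for P200 PBS mice against P9 mice (right), in CTR (blue) and ELS (orange) mice; filled circles have an adjusted p under 0.05. Trem1 and Treml2 are filled on the left in both rearing groups and Trem2 and Tyrobp in ELS mice only, while Trem2 is filled on the right in both; the size for Trem1 depends on the prior count, since its reference groups hold few or no counts.

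Whether ELS changed the LPS response was tested as an interaction. By the quasi-likelihood test none of the 16696 genes was called (0%, with 980 at an unadjusted p under 0.05), and thus no member. DESeq2 called 11 genes, edgeR's likelihood-ratio test 66 and limma 0, again without a member. The log2 difference between the responses of ELS and CTR mice was 0.50 for Trem2 (95% interval 0.19 to 0.82, unadjusted p = 0.00242, adjusted p = 0.384) and 0.61 for Tyrobp (interval 0.22 to 1.01, unadjusted p = 0.00306, adjusted p = 0.399). The response of Trem2 and Tyrobp in ELS mice was therefore not shown to differ from that in CTR mice. For Treml2 the value was 0.66 (interval -0.4 to 1.72) and for Hcst 0.48 (interval -0.18 to 1.13).

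ELS itself was examined in 3 settings, and no member was called in any. After PBS, 28 genes (0.168%) differed between ELS and CTR mice, with 1622 at an unadjusted p under 0.05. Tyrobp was at 844 ± 97.8 CPM in ELS-PBS mice, beside 1082 ± 270 CPM in CTR-PBS mice, a log2 difference of -0.36 (SE 0.14, unadjusted p = 0.0112, adjusted p = 0.289). Without CTR-PBS mouse 1 it was -0.22. Trem2 differed by -0.20 (adjusted p = 0.569), Treml2 by -0.57 (adjusted p = 0.682), or 0.07 without that mouse, and Treml4 by 2.33 (adjusted p = 0.432). Treml4 had counts in 4 of 6 ELS-PBS and in 2 of 7 CTR-PBS mice, between 8 and 31 per mouse. The ELS-PBS mice are shared by this comparison and by the LPS comparison of ELS mice. After LPS no gene was called between ELS and CTR by the quasi-likelihood test (0%, with 796 at an unadjusted p under 0.05, and 2, 10 and 0 called by DESeq2, the likelihood-ratio test and limma), and Trem2 differed by 0.30 (SE 0.11, unadjusted p = 0.0113, adjusted p = 0.862).

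At P9 the quasi-likelihood test called no gene between ELS and CTR mice (0%, with 914 at an unadjusted p under 0.05), DESeq2 and limma also 0, and the likelihood-ratio test 1. Trem2 was at 1463 ± 179 CPM in CTR and at 1529 ± 171 CPM in ELS pups, a log2 difference of 0.06 (95% interval -0.09 to 0.22). For Tyrobp it was 0.04 (interval -0.15 to 0.24), for Hcst 0.16 (interval -0.17 to 0.48), for Treml2 0.21 (interval -0.32 to 0.73) and for Treml4 -0.68 (interval -2.1 to 0.74). Trem1 had no count in the 12 P9-CTR mice and 69 counts over the P9-ELS mice, at least 22.1-fold more CPM with 3 counts over the group as the floor. These counts came from mouse 2 (12 counts, 0.339 CPM), mouse 11 (26 counts, 1.49 CPM) and mouse 12 (31 counts, 1.32 CPM), and the other 10 P9-ELS mice had none. The first number of a mouse's label was read as its nest, which the sources used here do not define. On that reading nest 55 held 2 of its 3 mice with Trem1, nest 9 held 1 of 3, and the 7 mice of nests 19 and 53 held none. The log2 difference was 5.45 (unadjusted p = 5.27e-05, adjusted p = 0.382). The 1 gene called by edgeR's likelihood-ratio test was Trem1 (adjusted p = 0.00661), while DESeq2 (adjusted p = 0.348) and limma (adjusted p = 0.743) did not call it. Even the highest of these mice was below the lowest LPS mouse, at 6.61 CPM.

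The age of the mice was the comparison with the broadest change, in which 44.1% of all genes tested were called in CTR and 42.2% in ELS mice. Of the 6 members 2 were called in CTR mice, Trem2 higher and Treml4 lower at P200, and 4 in ELS mice, Trem2 higher and Tyrobp, Treml2 and Trem1 lower. These shares are to be read against that background.

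Trem2 stood at 1219 to 1893 CPM in P9-CTR (median 1461) and at 2119 to 2764 CPM in CTR-PBS mice (median 2194), without overlap. Its log2 fold change was 0.66 (SE 0.092, adjusted p = 6.44e-08). In ELS mice it stood at 1321 to 2017 CPM at P9 (median 1501) and 1704 to 2163 CPM at P200 (median 2003), and P9 mouse 6, the library with the fewest reads, was the only P9 mouse above the lowest P200 mouse. The log2 fold change was 0.39 (SE 0.10, adjusted p = 0.000853). The difference between the age changes of ELS and CTR mice was -0.27 (95% interval -0.54 to 0.00, adjusted p = 0.487).

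Tyrobp did not follow Trem2 with age. In CTR mice it stood at 893 to 1518 CPM at P9 and 876 to 1674 CPM at P200, with a log2 difference of -0.11 (95% interval -0.35 to 0.12). Without CTR-PBS mouse 1 the difference was -0.25 and was not called (adjusted p = 0.0668). In ELS mice it stood at 1013 to 1631 CPM at P9 and 700 to 949 CPM at P200, without overlap, and fell by 0.51 on the log2 scale (SE 0.12, adjusted p = 0.000649). The log2 ratio of Tyrobp to Trem2 CPM within a mouse was -0.34 ± 0.13 in CTR and -0.35 ± 0.13 in ELS mice at P9. At P200 it was -1.12 ± 0.18 (CTR) and -1.25 ± 0.14 (ELS) after PBS and -1.11 ± 0.12 (CTR) and -1.14 ± 0.14 (ELS) after LPS. The highest value at P200 (-0.72) was below the lowest at P9 (-0.66), and within each age the groups overlapped.

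**Figure D4:**
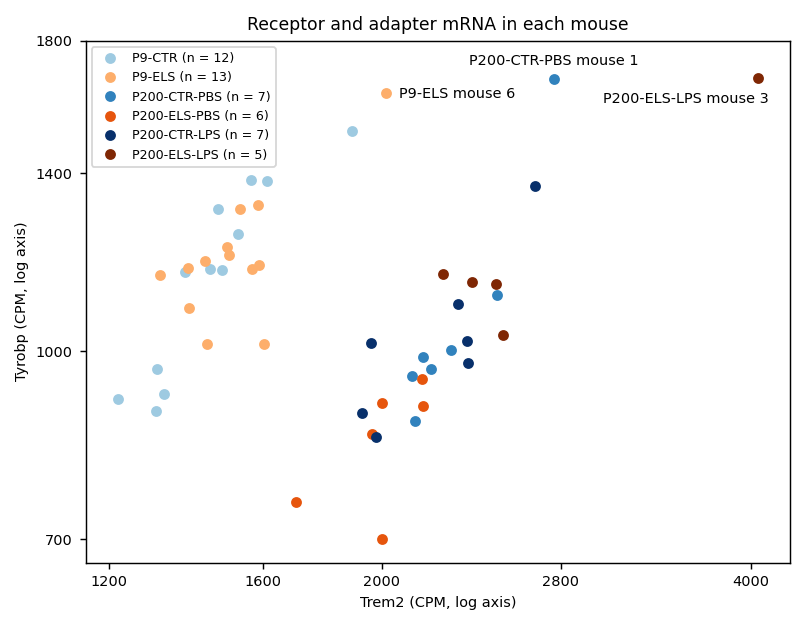
Tyrobp against Trem2 in each of the 50 mice (CPM, both axes logarithmic), coloured by group. The P9 mice form a band to the left of the P200 mice, in both bands the genes rise together, and P9-ELS mouse 6, CTR-PBS mouse 1 and ELS-LPS mouse 3 are the highest of their groups in both genes.

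Treml4 was highest in the young mice. It stood at 1.42 to 5.13 CPM in P9-CTR mice (median 2.41) and was found in 2 of 7 CTR-PBS mice, at 0.622 and 0.273 CPM, without overlap. The log2 fold change was -4.14 (SE 1.05, adjusted p = 0.0012), a value that depends on the prior count. In ELS mice it was spread over 0 to 3.51 CPM at P9 (median 1.03) and 0 to 1.48 CPM at P200, and the difference of -1.12 was not called (adjusted p = 0.347). The difference between the rearing groups in the age change was 3.02 (95% interval 0.47 to 5.57, adjusted p = 0.407).

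Treml2 was lower at P200 in ELS mice, at 6.08 ± 2.19 CPM against 16.7 ± 12.2 CPM at P9, with a log2 fold change of -1.44 (SE 0.35, adjusted p = 0.000682). The ranges overlapped, from 2.88 to 8.6 CPM at P200 and from 7.77 to 53.7 CPM at P9, where mouse 6 was the highest. In CTR mice the difference was -0.66 and was not called (SE 0.32, adjusted p = 0.0888). It was called without CTR-PBS mouse 1 (-1.3, adjusted p = 0.000311) and without P9-ELS mouse 6 (-0.66, adjusted p = 0.0486). Trem1, found in 3 P9-ELS mice as given above, was called lower at P200 in ELS mice (log2 fold change -3.7, adjusted p = 0.0185), and without P9-ELS mouse 12 it was not (-3.01, adjusted p = 0.0512). With limma and the nest as a random effect it was not called either (-1.07, adjusted p = 0.403). Hcst differed by 0.29 in CTR (95% interval -0.09 to 0.67) and by -0.19 in ELS mice (interval -0.59 to 0.22). Trem3 had 68 counts over the P9-CTR mice (0.25 CPM pooled) and none over the CTR-PBS mice, at least 12.5-fold lower in CPM. In ELS mice it had 8 counts at P9 (0.0282 CPM), 6 of them in mouse 12, and 34 counts after PBS at P200 (0.231 CPM), 25 of them in mouse 4. When genes with few counts were also tested, Trem3 was called lower at P200 in CTR mice (log2 fold change -5.58, adjusted p = 0.00237), the value for ELS mice being 2.68 (adjusted p = 0.0571), and between ELS and CTR pups it was -3.04 (adjusted p = 0.125). For the interaction of age and ELS 5 genes were called (0.0299%), none of them a member.

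Markers of other macrophages and of other cell types also moved with age. The 6 markers of border-associated macrophages (Mrc1, Cd163, Lyve1, Pf4, Cbr2 and F13a1) summed to 475 to 919 CPM in P9 mice and 1.86 to 11.4 CPM in P200 mice. Nearly all of the P9 sum was Mrc1, with medians of 699 CPM in CTR and 729 CPM in ELS pups, while the medians of the other 5 lay between 0.23 and 5.05 CPM. Of these markers 6 of 6 were called lower at P200 in CTR and 5 of 6 in ELS mice. Of the 8 microglial markers 7 were called higher and Fcrls lower at P200 in both rearing groups. Of 10 markers of other brain cells, 7 were called lower and 1 higher at P200 in CTR mice. In ELS mice 5 were lower and 1 higher. Among 5 monocyte markers tested, Plac8 and Vcan were lower and Ccr2 higher in both rearing groups. The neutrophil marker Cxcr2 was lower in both (log2 fold change -9.08 in CTR and -6.6 in ELS mice), and Mmp9 in ELS mice only. At P9 the medians of Cxcr2 were 14.0 CPM in CTR and 16.0 CPM in ELS pups, beside 14.6 and 16.5 CPM for the sum of the 13 neutrophil markers. Of the others only Mmp9 and Il1r2 had a median above 0, at 0.424 and 0.0772 CPM in CTR pups. Ly6g and Retnlg had no count. Over all genes 44.1% were called in CTR and 42.2% in ELS mice. The part of these cell types in the age differences of the members was not tested.

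The partners of these receptors were taken from lists of genes. Of 11 other receptors that use DAP12 or DAP10, 6 were tested, and none was called after LPS in either rearing group. Their log2 fold changes had a median of 0.23 in CTR mice, beside 0.005 over all genes, and 0.37 in ELS mice, beside -0.035. They include Csf1r, the receptor for colony-stimulating factor that microglia need to survive, at 0.12 (adjusted p = 0.86) in CTR mice, and Siglech, a microglial lectin, at -0.04 (adjusted p = 0.932). With age, Clec5a, a C-type lectin that pairs with DAP12, was higher in CTR mice (262 against 162 CPM, log2 fold change 0.69, SE 0.19, adjusted p = 0.00238). In ELS mice Cd300ld (0.0597 against 1.18 CPM, -4.15, adjusted p = 0.0225) and Pilrb2 (0.0402 against 0.364 CPM, -3.01, adjusted p = 0.0499), both low, were lower at P200.

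Downstream of the adapters, 24 of 26 kinases, scaffolds, enzymes and inhibitors were tested. After LPS 6 were higher and 1 lower in CTR mice, where 14.9% of all genes were called, and 4 were higher and 2 lower in ELS mice, where 12.3% were. Their log2 fold changes had a median of 0.23 in CTR mice, beside 0.005 over all genes, and 0.03 in ELS mice, beside -0.035. Lcp2, which encodes the scaffold SLP-76, rose from 458 to 1092 CPM in CTR (log2 fold change 1.25, SE 0.16, adjusted p = 2.87e-08) and from 424 to 1094 CPM in ELS mice (1.37, SE 0.18, adjusted p = 7.21e-08). The Src family kinase Fgr rose from 4.5 to 30.6 CPM in CTR (2.77, adjusted p = 0.00296) and from 3.84 to 32.1 CPM in ELS mice (3.07, adjusted p = 0.00394). Malt1, a protease of the CARD9 and BCL10 complex, rose by 1.14 in CTR mice (adjusted p = 0.0472) and was not called in ELS mice (0.82, adjusted p = 0.261). The kinase gene Btk fell by 0.60 in CTR (adjusted p = 0.00178) and by 0.51 in ELS mice (adjusted p = 0.0297). Cbl, a ubiquitin ligase, fell by 0.66 in ELS mice (adjusted p = 0.0479) and was not called in CTR mice (-0.46, adjusted p = 0.124). Between ELS and CTR mice none of the 24 was called at either age or after LPS.

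With age, 8 of the 24 were higher and 1 lower at P200 in CTR mice, where 44.1% of all genes were called, and 11 were higher and 1 lower in ELS mice, where 42.2% were. These counts are near that background. Lat2, a membrane scaffold of myeloid cells, stood at 208 against 110 CPM in CTR mice (log2 fold change 0.91, SE 0.11, adjusted p = 2.68e-09), and Pik3r1, a regulatory subunit of PI3 kinase, at 260 against 145 CPM (0.84, SE 0.13, adjusted p = 8e-07). Vav3, a guanine nucleotide exchange factor, had no count in any PBS mouse, against 80 counts in P9-CTR and 200 in P9-ELS mice, at least 14.7-fold and 34.6-fold more CPM. Syk, the kinase that binds phosphorylated DAP12, was called in ELS mice only (0.57, SE 0.21, adjusted p = 0.0213), and the difference between rearing groups was not called.

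Of 8 reported ligands of TREM1 and TREM2, 5 were tested. Apoe, which encodes the lipoprotein apolipoprotein E that binds TREM2, was higher after LPS in CTR mice (120 against 54.2 CPM, log2 fold change 1.14, SE 0.26, adjusted p = 0.001). No ligand was called in ELS mice, where Apoe changed in the same direction (0.72, SE 0.29, adjusted p = 0.0944). For the interaction of LPS and ELS no ligand was called. The age difference of Apoe was far larger. In CTR mice Apoe stood at 8033 CPM at P9 and at 54.2 CPM at P200 after PBS (-7.21, SE 0.33, adjusted p = 5.83e-24), and at 7933 and 66.9 CPM in ELS mice (-6.89, SE 0.35, adjusted p = 2.85e-22). Clu, which encodes clusterin, fell from 28.4 to 0.833 CPM in CTR mice, and Hmgb1, a nuclear protein released from damaged cells, from 527 to 227 CPM. Hspa1a, a heat shock protein, rose from 0.573 to 6.03 CPM. The ligand Apoe and the receptor Trem2 thus differed with age in opposite directions in both rearing groups. The border macrophage markers and most of the called markers of other brain cells given above moved in the same direction as Apoe. The part of these cells in the Apoe level was not tested. Adam10 and Adam17, which encode proteases that cleave TREM2, were called in none of the 9 comparisons.

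The neighbours of the members were read in the same way. In the chromosome 17 cluster Trem6l, the gene between Treml2 and Trem2, was higher after LPS, at 31.2 ± 5.11 against 16.8 ± 6.3 CPM in CTR (log2 fold change 0.89, SE 0.32, adjusted p = 0.0459) and 33.6 ± 4.56 against 16.5 ± 4.27 CPM in ELS mice (1.02, SE 0.35, adjusted p = 0.0474), without overlap. It was also higher at P200 than at P9, by 1.41 in CTR (adjusted p = 3.32e-05) and 0.92 in ELS mice (adjusted p = 0.00659). Trem4 and Treml1 had mean levels under those of Treml4 at P9, between 0.132 and 0.481 CPM, and were called in no comparison, and Trem5 had 2 counts in all. Thus Trem1, Treml2 and Trem6l were called after LPS in both rearing groups, while Treml4, which lies between Trem1 and Treml2, was not. Next to Hcst on chromosome 7, Nfkbid, an inhibitor of NF-kB, was higher after LPS, from 4.37 to 27.9 CPM in CTR (2.68, SE 0.40, adjusted p = 8.5e-07) and from 5.25 to 30.6 CPM in ELS mice (2.54, SE 0.44, adjusted p = 1.99e-05). Aplp1 was lower after LPS in CTR mice (-1.97, adjusted p = 0.0419) and not called in ELS mice (0.16, adjusted p = 0.934). With age it was lower in CTR (-1.99, adjusted p = 0.00677) and ELS mice (-2.39, adjusted p = 0.00307). Kirrel2 and Nphs1 did not pass the filter on low counts.

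The genes whose log2 CPM most resembled each member over the 50 mice are a description, since all mice share the same groups and normalization. For Trem1 they were Gm49482 (Pearson r = 0.96), Gpr84 (0.96), Map3k8 (0.95), Gm47079 (0.95) and Pde4b (0.95). For Trem2 they were Ctsh and H2-DMa (0.92 each), Ecscr, Creg1 and Cd300c2 (0.91 each). For Tyrobp they were Rps21 and Uqcrh (0.83 each), Krtcap2, Rpl34 and Rpl37 (0.82 each). Treml2 was closest to Mt1 (0.83), which encodes metallothionein, Treml4 to Nup85 and Rcc2 (0.75 each), and Hcst to Ndufaf8 and Lamtor4 (0.69 each).

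After the mean of each group was subtracted, Tyrobp was the gene closest to Trem2 (r = 0.81), ahead of Ftl1 (0.80). For Tyrobp the closest were Cox6a1 (0.89) and Higd2a (0.85), and for Hcst Cd300c2 (0.75). Among the members Tyrobp and Hcst had r = 0.70 and Trem2 and Hcst 0.57. As measured, with the age groups left in, Trem2 and Tyrobp had r = 0.12. Trem1 was not close to any member within groups, with r between -0.2 and 0.11. Outside the LPS groups most mice had no Trem1 count, so these values cannot show whether Trem1 varies apart from the other members. P9-ELS mouse 6 and CTR-PBS mouse 1, whose libraries held few detected genes, were the highest of their groups in both Trem2 and Tyrobp. P9-ELS mouse 5, also with few detected genes, was not, at 1590 CPM of Trem2 and 1177 CPM of Tyrobp. The medians of its group were 1501 and 1177 CPM.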

How the data were processed

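RNA with poly-A tails was sequenced from the microglia of 50 mice, 1 library each. The authors trimmed the reads with cutadapt 2.10 after bcl2fastq 2.20, aligned them with STAR (genome GRCm39) and counted unique exonic reads per gene with HTSeq 0.11.0. They deposited raw counts without normalization. The annotation release and strand setting are not given in the sources used here. Groups came from the age, rearing and treatment in the labels. Nothing in the labels says more about how mice were drawn than the mouse number. The study assigned whole litters to CTR or ELS. With the first number of the label read as the nest, the 12 P9-CTR mice came from 5 nests and the 13 P9-ELS mice from 4. Each P200 group came from 5 nests. The main test treats mice of the same nest as independent, so p-values measure the spread between these mice and not between litters.

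Counts were scaled by TMM and tested with edgeR 4.0.16 (R 4.3.3) by its quasi-likelihood test with Benjamini-Hochberg adjustment, in 1 model of 6 group means over genes with at least 1 CPM in at least 3 mice (16696). The test was checked on simulated data. Log2 CPM used a prior count of 2. RPKM used exonic lengths of a GENCODE annotation of GRCm39, in which 52610 genes were found. Correlations are Pearson's r. Pooled-count intervals are exact at 95%. The alternatives were DESeq2 1.42.0, limma 3.58.1, other tests, scalings, filters and libraries left out.

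The text names all members and up to 3 genes each way per list and comparison, by the size of the fold change among those called. It also names annotated neighbours within the cluster or 50 kb of the adapters, up to 5 similar genes per member, and defining markers. Csf1r, Siglech and Syk were named beyond these after their values were seen. The members and lists were chosen with earlier results of these data known. Some genes of the lists are counted with their list but not reported here by name.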

Additional observations from a re-analysis of the deposited data

Results flagged for a closer look

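In groups of 4 to 10 mice, the highest or lowest mouse of a member was compared with the nearest of the others, relative to the group's range. Of 27 sets of values examined, 7 held a mouse that stood apart at Dixon's 95% limit. The limit's chance rate of about 1 in 20 holds for independent, normally distributed values. Some of these sets held few counts, and some flags shared a mouse, so the 7 cannot be compared with that rate. CTR-PBS mouse 1 stood apart in Tyrobp, at 1674 CPM against 876 to 1113 CPM in the others, and in Treml2, at 28.7 CPM against 4.4 to 7.5 CPM. Its library held 12854 genes with a count. ELS-LPS mouse 3 stood apart in Trem2, at 4055 CPM against 2246 to 2511 CPM, and in Tyrobp, at 1677 CPM against 1031 to 1157 CPM. Its library held 18600 genes with a count, within the range of the others, and 5.99 CPM of the monocyte markers. It was also the ELS-LPS mouse with the lowest Trem1, at 6.61 CPM.

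The other flags were in genes with few counts. Trem1 was at 0.156 CPM in CTR-PBS mouse 3 and at 0 in the other mice of its group. Trem3 was at 1.0 CPM in ELS-PBS mouse 4, against 0 to 0.254 CPM. Treml4 was at 1.46 CPM in CTR-LPS mouse 4, against 0 to 0.599 CPM.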

How the results depend on the processing

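The number of members called is given against the result of the report. The number of all genes called also differed between settings, and its share is not given here for each. The counts below are therefore not read as a result about the members. With an added threshold of 1 on the absolute log2 fold change, the count was 2 in place of 4 for LPS in ELS mice, 1 in place of 2 for age in CTR mice and 2 in place of 4 for age in ELS mice. With edgeR's likelihood-ratio test it was 1 (Trem1) in place of 0 for ELS at P9 and 3 in place of 2 for age in CTR mice, where Trem1, with 4 counts in 1 mouse, was added (log2 fold change 2.38, adjusted p = 0.0348). With limma and the nest as a random effect it was 3 in place of 2 for age in CTR mice, Treml2 being added (-0.94, adjusted p = 0.0106), and 3 in place of 4 for age in ELS mice, Trem1 being lost (-1.07, adjusted p = 0.403). For age in CTR mice it was 4 in place of 2 without the 3 libraries under 16000 detected genes and also 4 without CTR-PBS mouse 1 and ELS-LPS mouse 3, an alternative chosen after seeing the data, Tyrobp and Treml2 being the additional calls. When each mouse was left out in turn, the count ranged from 2 to 4 for LPS in ELS mice, with 2 only without ELS-LPS mouse 3, from 2 to 3 for age in CTR mice and from 3 to 4 for age in ELS mice, and was the same in all 50 fits for the other comparisons. With the nest as a replicate block in the P200 mice, 2 members were called after LPS in CTR mice, 4 in ELS mice and 0 for the interaction, as without it. PBS and LPS mice of 1 nest did not deviate together, with correlations over genes between -0.041 and 0.084 in the 10 nests, so that the nest was not taken as a pairing.

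Of 3213 refitted values of single members, 3191 kept their side of the threshold, 10 lost a call, 9 gained one and 3 moved. No called value changed sign, but 20 of the 3191 are differences that were not called and turned sign, such as Treml2 for ELS after PBS (-0.57, and 0.07 without CTR-PBS mouse 1). The 3 that moved are the log2 ratios of Trem1 to Trem2 in groups with Trem1 at or near 0, which follow the prior count. Treml4, Trem3 and, outside the LPS mice, Trem1 rest on few counts per mouse, which limits what can be seen of them at this depth.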
